A study of Mus musculus with 20 samples.

Results

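The 41 genes described here encode the contractile unit of striated muscle, the sarcomere, and the structures that anchor it. They comprise the thick filament (myosin heavy and light chains, myosin-binding protein and the light chain kinase), the thin filament (actins, troponins, tropomyosins and the proteins that set filament length), titin and the M-band, the Z-disc, and the intermediate filament, stress and costamere proteins. Members were taken from a list of gene symbols, and 41 of the 41 symbols were found among the 33495 genes of the deposited count table.

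A sarcomere shortens when myosin heads of the thick filament pull on actin of the thin filament, and the troponin complex lets them do so only when calcium rises. Troponin C binds the calcium, troponin I holds the filament off at rest, and troponin T ties both to tropomyosin. Most of these proteins are made from small gene families whose members differ between heart, slow skeletal and fast skeletal muscle. The mouse embryonic heart uses a mixture: it carries the slow skeletal troponin I (Tnni1) before the cardiac form (Tnni3) takes over, β-myosin (Myh7) with α-myosin (Myh6) in the ventricle, and the atrial light chains (Myl4, Myl7) in all chambers before they withdraw from the ventricle. Thin filaments of opposite polarity meet at the Z-disc, where α-actinin crosslinks them and the calsarcins (Myoz1, Myoz2) tether the phosphatase calcineurin.

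RNA-seq was performed on embryonic mouse hearts, strain C57BL/6, in which a floxed Kmt2d gene had been deleted by 1 of 3 Cre drivers. Kmt2d encodes a methyltransferase of histone H3 lysine 4. Mutants carried the Cre and Kmt2d fl/fl, controls carried the same Cre and Kmt2d fl/+, and every embryo carried 1 copy of the Cre reporter mTmG, so that the control hearts had lost 1 Kmt2d allele in the Cre-expressing cells and were not wild type at the locus, although their labels read WT. Mesp1Cre, which acts in early cardiac mesoderm, was profiled in whole hearts at embryonic day (E) 9.0 with 4 mutant and 4 control libraries. Tnnt2::Cre, which acts in cardiomyocytes, was profiled in whole hearts at E11.5 with 3 and 3. Mef2cAHF::Cre, which acts in anterior heart field precursors, was profiled in the right ventricle and outflow tract at E11.5 with 3 and 3. Whole tissue was sequenced, so cells outside each Cre domain kept Kmt2d, and a lower value of a muscle gene from fewer cardiomyocytes cannot be told apart from less RNA per cardiomyocyte. Whether each library came from 1 embryo was not stated in the sources used here, and p-values measure the spread between these libraries, which may in part be technical.

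Between 21727258 and 45341870 reads were counted per library, and the 41 genes took 3.65% to 8.10% of them. The labels of the Mef2cAHF::Cre libraries conflict: the deposited table names each column by the opposite genotype to the sample's title and genotype. The targeted gene, under its older symbol Mll2, had a log2 fold change of 0.32 ± 0.06 (SE, adjusted p = 0.0359, edgeR quasi-likelihood test with Benjamini-Hochberg adjustment) in the libraries labelled mutant over those labelled WT, against -0.21 ± 0.07 (adjusted p = 0.0764) in Mesp1Cre and -0.35 ± 0.12 (adjusted p = 0.327) in Tnnt2::Cre mutants. Signs for Mef2cAHF::Cre below follow the sample labels, and if the column names are followed instead every one of them reverses. None of the 17 cardiomyocyte markers was at 0 in any group, and their summed level ran from 4244 to 8307 CPM, the count of a gene relative to 1000000 reads of the library. The 15 skeletal muscle markers found in the table summed to 4.50 to 18.6 CPM. In the Mesp1Cre mutants 6 of them, among them Myod1 and Myog, were at 0 in every library. In the Mesp1Cre controls 2 of them, Myod1 and Myf6, were also at 0 in every library. Hemoglobin genes took 2.07% to 11.8% of counts in the Tnnt2::Cre mutants, where replicate 1 held the highest share, and 9.05% to 14.7% in their controls. In Mesp1Cre they took 0.205% to 0.779% in the mutants and 0.504% to 1.69% in the controls, and mitochondrial genome genes took 13.3% to 15.7% and 22.0% to 23.4%. In Mef2cAHF::Cre the mitochondrial share was 30.1% to 30.7% in the libraries labelled mutant and 24.8% to 28.2% in those labelled WT. The part of these differences in the results below was not tested. Fits without those genes, where given, only leave out their counts.

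Promoters of 32 of the 41 genes were found in the RefSeq promoter table for GRCm38.p6, each running from 250 bases before the transcription start to 50 after it. They were searched on both strands for the CArG box bound by serum response factor, the site of the MEF2 factors, the MCAT element CATTCC bound by TEAD factors, and the letters TATAAA. A CArG box was found in 8 of 44 member promoters (18.2%) against 1.63% of all 32851 promoters, and the 7 genes that held one were Acta1, Actc1, Ldb3, Myl3, Myl7, Myom1 and Nebl. The MEF2 site was found in 3 (6.82%, against 3.19%), those of Mybpc3, Myoz2 and Ttn. MCAT was found in 15 (34.1%, against 14.7%) and TATAAA in 6 (13.6%, against 13.6%). A match describes letters only and is not evidence of binding. The promoters of the cardiac actin, the skeletal actin and the cardiac calsarcin are printed because Actc1 had the highest level of the members, Acta1 is its skeletal counterpart and Myoz2 had the largest change between the stages. The skeletal actin promoter lies at chr8:123894726-123895025, that of cardiac actin at chr2:114052826-114053125 and that of Myoz2 at chr3:123034938-123035237, all on the minus strand. Capitals mark the CArG box, MCAT and TATAAA in the actin promoters and the MEF2 site in that of Myoz2. The CArG boxes of the actin promoters sit upstream of a TATAAA in both, and Acta1 has an MCAT between them. Relative to the annotated start, the TATAAA lies downstream in Actc1, at bases 34 to 39, and at bases -7 to -2 in Acta1.
Actc1: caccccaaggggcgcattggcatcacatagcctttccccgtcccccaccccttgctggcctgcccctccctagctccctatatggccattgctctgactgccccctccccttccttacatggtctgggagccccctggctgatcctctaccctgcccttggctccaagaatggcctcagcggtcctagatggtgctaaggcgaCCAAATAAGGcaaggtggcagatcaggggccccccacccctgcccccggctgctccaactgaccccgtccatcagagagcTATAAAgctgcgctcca
Acta1: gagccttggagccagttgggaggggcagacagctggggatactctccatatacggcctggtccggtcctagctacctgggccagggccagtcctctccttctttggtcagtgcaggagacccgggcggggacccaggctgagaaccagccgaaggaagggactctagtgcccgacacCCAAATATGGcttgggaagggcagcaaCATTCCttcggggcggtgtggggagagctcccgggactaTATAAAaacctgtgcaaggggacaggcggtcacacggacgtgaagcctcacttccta
Myoz2: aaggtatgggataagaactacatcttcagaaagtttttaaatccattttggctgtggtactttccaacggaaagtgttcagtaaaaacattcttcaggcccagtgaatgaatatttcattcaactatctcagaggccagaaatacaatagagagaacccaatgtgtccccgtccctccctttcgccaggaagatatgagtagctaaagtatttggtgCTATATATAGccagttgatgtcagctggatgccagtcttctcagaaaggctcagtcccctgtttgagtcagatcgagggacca

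Levels of different genes were compared in FPKM (fragments per kilobase of gene, scaled to the library), in which both the length of the gene and the total of the library are divided out. Cardiac actin, Actc1, had the highest level of the 41, with 8684, 9423, 7249 and 9208 FPKM in the Mesp1Cre controls, 10500, 9001, 9280 and 7954 in the Mesp1Cre mutants, 7162, 6075 and 8605 in the Tnnt2::Cre controls, 8174, 9262 and 10170 in the Tnnt2::Cre mutants, 5263, 4359 and 5219 in the Mef2cAHF::Cre libraries labelled WT and 4987, 5011 and 5101 in those labelled mutant. Skeletal actin, Acta1, the partner isoform that the early heart also transcribes, was at 203, 222, 145 and 227 FPKM in the Mesp1Cre controls, 197, 198, 175 and 184 in the Mesp1Cre mutants, 96.9, 66.2 and 91.8 in the Tnnt2::Cre controls, 97.8, 141 and 142 in the Tnnt2::Cre mutants, 38.3, 34.9 and 58.7 in the Mef2cAHF::Cre libraries labelled WT and 48.0, 47.6 and 51.4 in those labelled mutant. Cardiac actin was the main actin in every library, with a mean Acta1/Actc1 ratio of 0.0228 in E9.0 controls and 0.0117 in E11.5 Tnnt2::Cre controls.

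The myosin heavy chains lie 3759 bases apart on mouse chromosome 14 (mm9 chr14:55560765-55585764 for Myh6 and chr14:55589524-55613471 for Myh7), and 11.1% of 100-base windows of Myh6 recur in Myh7, so that part of their reads could not be assigned by sequence alone. α-myosin, Myh6, was at 385, 456, 346 and 306 FPKM in the Mesp1Cre controls, 469.7, 378, 346 and 381 in the Mesp1Cre mutants, 224, 197 and 208 in the Tnnt2::Cre controls, 212, 273 and 238 in the Tnnt2::Cre mutants, 246.3, 123 and 137 in the Mef2cAHF::Cre libraries labelled WT and 189, 189 and 151 in those labelled mutant. β-myosin, Myh7, was at 251, 349, 203 and 398 FPKM in the Mesp1Cre controls, 432, 310.1, 429 and 469.6 in the Mesp1Cre mutants, 266, 282 and 309 in the Tnnt2::Cre controls, 299, 397 and 380.1 in the Tnnt2::Cre mutants, 553, 466 and 416 in the Mef2cAHF::Cre libraries labelled WT and 503, 476 and 489 in those labelled mutant. Myh7 was above Myh6 in every E11.5 library, whereas at E9.0 the order varied among the libraries of both genotypes, with Myh7/Myh6 ratios of 0.586 to 1.30 in controls and 0.820 to 1.24 in mutants.

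Of the regulatory light chains, the atrial form Myl7 was at 4617, 4918, 3974 and 4029 FPKM in the Mesp1Cre controls, 5838, 5379, 5534 and 4955 in the Mesp1Cre mutants, 2582, 2188 and 2957 in the Tnnt2::Cre controls, 2845, 3435 and 3427 in the Tnnt2::Cre mutants, 958, 844 and 1212 in the Mef2cAHF::Cre libraries labelled WT and 1320, 1111 and 1167 in those labelled mutant. The ventricular form Myl2 was at 476, 456, 378 and 568 FPKM in the Mesp1Cre controls, 359.7, 379.7, 585 and 467 in the Mesp1Cre mutants, 656, 645 and 729.8 in the Tnnt2::Cre controls, 686, 668 and 777 in the Tnnt2::Cre mutants, 579.8, 416 and 504 in the Mef2cAHF::Cre libraries labelled WT and 646, 592 and 591 in those labelled mutant. Myl7 was thus above Myl2 in all 20 libraries, with a mean Myl2/Myl7 ratio of 0.106 in E9.0 control hearts, 0.265 in E11.5 whole control hearts and 0.499 in the right ventricle and outflow tract labelled WT. Among the essential light chains, the ventricular and slow skeletal form Myl3 was at 523, 517, 426 and 537 FPKM in the Mesp1Cre controls, 647, 516, 756 and 624 in the Mesp1Cre mutants, 946, 832 and 1173 in the Tnnt2::Cre controls, 935, 1106 and 1275 in the Tnnt2::Cre mutants, 538, 527 and 487 in the Mef2cAHF::Cre libraries labelled WT and 601, 546 and 604 in those labelled mutant. The atrial form Myl4 was at 468, 461, 408 and 445 FPKM in the Mesp1Cre controls, 420.4, 406, 410.3 and 414 in the Mesp1Cre mutants, 786, 603 and 853 in the Tnnt2::Cre controls, 719.8, 748.4 and 843 in the Tnnt2::Cre mutants, 232, 175 and 257 in the Mef2cAHF::Cre libraries labelled WT and 319, 280.2 and 317 in those labelled mutant. Myl3 was above Myl4 in every library, with Myl3/Myl4 ratios from 1.04 to 1.21 in E9.0 controls and 1.89 to 3.00 in the right ventricle and outflow tract labelled WT.

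Among the troponins, the cardiac troponin T, Tnnt2, was at 1567, 1512, 1263 and 1401 FPKM in the Mesp1Cre controls, 1702, 1736, 1708 and 1778 in the Mesp1Cre mutants, 1088, 1322 and 1496 in the Tnnt2::Cre controls, 1475, 1994 and 1578 in the Tnnt2::Cre mutants, 1872, 1453 and 1257 in the Mef2cAHF::Cre libraries labelled WT and 1697, 1555 and 1687 in those labelled mutant. Slow skeletal troponin T, Tnnt1, was at 17.5, 13.2, 11.2 and 10.8 FPKM in the Mesp1Cre controls, 7.53, 4.55, 11.3 and 5.36 in the Mesp1Cre mutants, 40.1, 38.3 and 44.2 in the Tnnt2::Cre controls, 16.2, 24.4 and 23.4 in the Tnnt2::Cre mutants, 27.2, 23.7 and 35.4 in the Mef2cAHF::Cre libraries labelled WT and 54.9, 37.8 and 46.3 in those labelled mutant. Fast skeletal troponin T, Tnnt3, ranged over all libraries from 0.446 to 5.78 FPKM. The order Tnnt2 over Tnnt1 over Tnnt3 therefore held in every library.

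Slow skeletal troponin I, Tnni1, the inhibitor of the embryonic heart, was at 313, 324, 262 and 339 FPKM in the Mesp1Cre controls, 326, 289.8, 332 and 314 in the Mesp1Cre mutants, 438, 363 and 532 in the Tnnt2::Cre controls, 397, 466 and 482 in the Tnnt2::Cre mutants, 312, 250.4 and 224 in the Mef2cAHF::Cre libraries labelled WT and 338, 296 and 334 in those labelled mutant. Cardiac troponin I, Tnni3, was at 91.9, 86.0, 78.3 and 68.4 FPKM in the Mesp1Cre controls, 44.9, 52.9, 64.9 and 47.5 in the Mesp1Cre mutants, 123, 114 and 147 in the Tnnt2::Cre controls, 82.6, 115 and 98.3 in the Tnnt2::Cre mutants, 34.5, 31.4 and 32.7 in the Mef2cAHF::Cre libraries labelled WT and 67.7, 58.9 and 64.9 in those labelled mutant. Tnni1 exceeded Tnni3 in all 20 libraries, by 3.19 to 3.62-fold in the E11.5 Tnnt2::Cre controls and by 6.83 to 9.02-fold in the right ventricle and outflow tract labelled WT. Fast skeletal troponin I, Tnni2, ranged from 1.99 to 7.71 FPKM.

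Cardiac and slow skeletal troponin C, Tnnc1, was at 652, 589, 581 and 652 FPKM in the Mesp1Cre controls, 506, 542, 577 and 531 in the Mesp1Cre mutants, 652, 602 and 792 in the Tnnt2::Cre controls, 736, 704 and 778 in the Tnnt2::Cre mutants, 451, 362 and 428 in the Mef2cAHF::Cre libraries labelled WT and 471, 435 and 457 in those labelled mutant. A second annotated gene of the same sequence exists in the annotation, so the reads of Tnnc1 may have been split. Fast skeletal troponin C, Tnnc2, had 0 to 5 reads per library and overlaps Ube2c on the opposite strand, and the Z-disc gene Myot, encoding myotilin, had 0 to 20. Neither passed the filter on low counts in any comparison, and the M-band gene Myom2, with 2 to 34 reads, was not tested in Mesp1Cre hearts. The other 38 members were tested in every comparison.

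**Figure D1:**
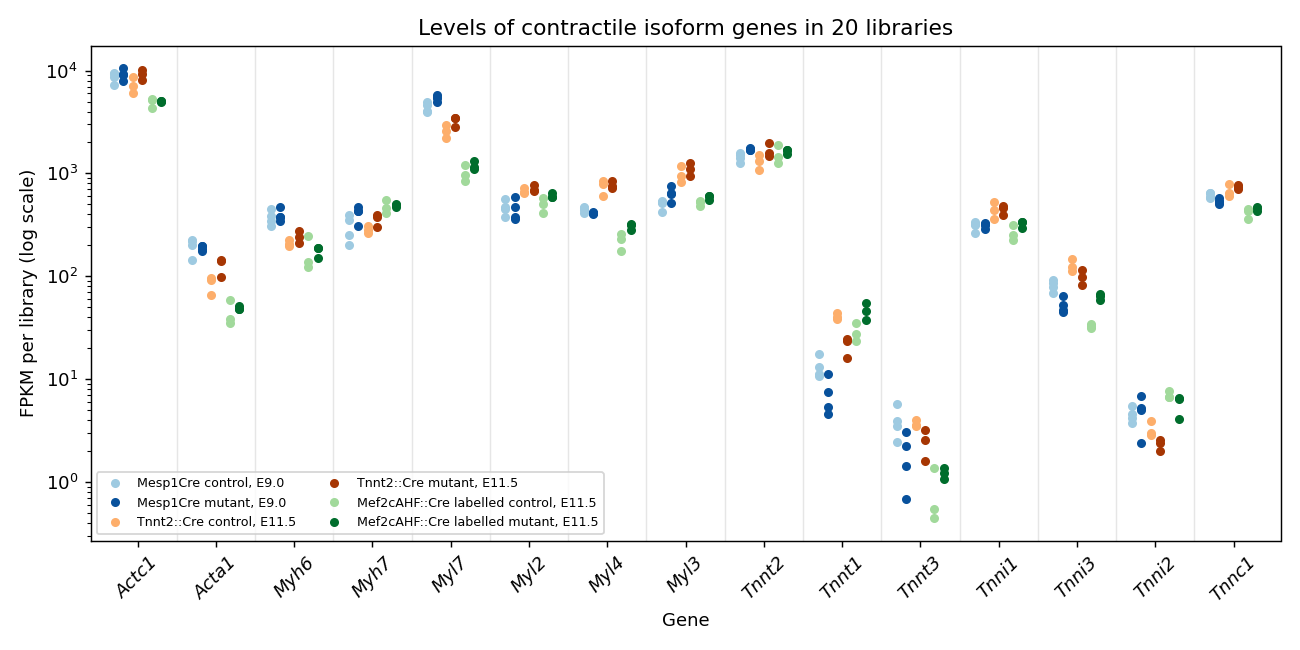
FPKM (log axis) of 15 isoform genes in each of the 20 libraries, grouped by Cre line and genotype, with 1 point per library. Actc1 lies at the top in every group at 4359 to 10500 FPKM, and the fast skeletal forms Tnnt3 (0.446 to 5.78 FPKM) and Tnni2 (1.99 to 7.71 FPKM) lie far below Tnnt2 and Tnni3 or Tnni1.

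To ask how the genes differ between the stages, E11.5 Tnnt2::Cre control hearts were compared with E9.0 Mesp1Cre control hearts. Among 39 members tested, 10 were higher and 12 lower at E11.5, or 56.4%, where 38.3% of all 16697 genes tested passed the threshold (19.6% higher and 18.8% lower). The groups did not overlap for 22 members, or 56.4% against 45.4% of all genes (25.3% higher and 20.2% lower), and the median log2 change of the members was -0.098. The harvest text shared by all samples names E11.5, whereas the Mesp1Cre samples themselves are labelled E9.0, and the sample label was followed. Stage cannot be told apart here from Cre line or from a group number in the deposited column names, which differs between the Cre lines. This comparison shares its E9.0 controls with the Mesp1Cre comparison and its E11.5 controls with the Tnnt2::Cre comparison. Markers of other cells differed along with these genes, and their part was not tested: 14 of 15 erythroid, 7 of 7 epicardial, 7 of 8 mesenchyme and 6 of 8 macrophage markers were called higher in the E11.5 controls.

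The member with the widest separation was Myoz2, the calsarcin of cardiac and slow muscle, at 6.62, 5.65, 7.40 and 8.90 CPM in the E9.0 controls and 40.8, 41.9 and 51.2 CPM in the E11.5 controls. The groups were far apart, and the log2 fold change was 2.61 ± 0.16 (SE, adjusted p = 1.16e-06, edgeR quasi-likelihood test). Myoz1, its skeletal relative, was at 4.49, 6.23, 6.65 and 5.85 CPM and 7.05, 4.90 and 5.41 CPM, and these groups overlapped (log2 fold change -0.033 ± 0.22, adjusted p = 0.922).

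The 10 members that were higher at E11.5 included, besides Myoz2, the slow troponin T Tnnt1. It was at 19.1, 14.3, 11.7 and 11.54 CPM at E9.0 and 44.1, 42.7 and 51.9 CPM at E11.5, without overlap, for a log2 fold change of 1.67 ± 0.17 (adjusted p = 2.68e-05). The light chains Myl3, Myl4 and Myl2 rose by 1.02, 0.79 and 0.57 on the log2 scale and the troponin I forms Tnni3 and Tnni1 by 0.70 and 0.56. The costamere protein Smpx rose by 0.98, the muscle LIM protein Csrp3 by 0.85 and telethonin, Tcap, which caps titin at the Z-disc, by 0.82 (adjusted p = 0.0287). The call on Tcap was lost without the E11.5 control replicate 3 or the E9.0 control replicate 2 or 3.

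Of the 12 members that were lower at E11.5, Nexn (nexilin, an actin-binding Z-disc protein) was at 417, 434, 324 and 364 CPM at E9.0 and 141, 122 and 159.9 CPM at E11.5 (-1.48 ± 0.12, adjusted p = 7.13e-06). Nebulette, Nebl, which binds actin next to the Z-disc, was at 1196, 1423, 1059 and 1287 CPM and 496, 431 and 495 CPM (-1.42 ± 0.11, adjusted p = 5.35e-06). Neither gene's groups overlapped. Skeletal actin Acta1 had a log2 change of -1.19 ± 0.17 (adjusted p = 0.000305), titin (Ttn) of -1.06 ± 0.17, the Z-disc LIM protein Pdlim5 of -1.05 ± 0.096, Myh6 of -0.79 ± 0.13 and Myl7 of -0.73 ± 0.13. The tropomyosin Tpm2 (-0.49), the light chain kinase Mylk3 (-0.48), filamin C (Flnc, -0.42), the pointed-end cap Tmod1 (-0.39) and Xirp1 (-0.39), a protein of cell junctions and costameres, also fell. The call on Xirp1 was lost without the E11.5 control replicate 2.

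With the E11.5 right ventricle and outflow tract in place of the whole heart, several of these directions turned and other calls were lost. Against the E9.0 controls the libraries labelled WT had log2 changes of -1.46 for Tnni3, -1.15 for Myl4, -0.40 for Tnni1, -0.11 for Myl3 and -0.060 for Myl2, with 3 members called higher and 23 lower where 34.7% of all genes were called. The same libraries labelled WT put Nexn at -0.21, Csrp3 at 0.13, Smpx at 0.14 and Tcap at 0.44, none of them called. The libraries whose columns are named WT gave -0.38 for Tnni3 and -0.58 for Myl4. There Myl3 (0.18), Tnni1 (0.024), Csrp3 (0.088) and Tcap (0.44) were not called, whereas Nexn and Smpx kept their calls. In that fit 38.6% of all genes were called. Tissue, Cre line and the group number in the column names cannot be told apart in these values.

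In E9.0 Mesp1Cre hearts, 2 of 38 members tested were higher and 11 lower in the mutants, or 34.2% against 11.47% of all 15883 genes tested (6.17% higher and 5.29% lower). The median log2 change was -0.13 over the members and -0.0018 over all genes. The genes that fell spanned the calsarcins, cardiac troponin I, slow troponin T, troponin C, a light chain, the thin-filament elongation factor leiomodin 2, filamin C, and 3 of the 5 intermediate filament, stress and costamere proteins. The genes that rose were titin and nexilin. Groups did not overlap for 12 of the 38 members (31.6%, against 18.1% of all genes). Mutants were above the controls for 3 members (7.89%, against 8.39% of all genes) and below for 9 (23.7%, against 9.69%).

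At the Z-disc, Myoz1 (mm9 chr14:21468329-21475717) was at 2.24, 1.40, 0.895 and 1.79 CPM in the 4 mutants and 4.49, 6.23, 6.65 and 5.85 CPM in the 4 controls. All mutants were below all controls, with a log2 fold change of -1.86 ± 0.32 (SE, adjusted p = 0.00295, edgeR quasi-likelihood test), from 21 to 53 reads per mutant library and 122 to 168 per control library. Myoz2 (mm9 chr3:122709123-122737908) was at 1.65, 1.14, 3.75 and 2.06 CPM in mutants and 6.62, 5.65, 7.40 and 8.90 CPM in controls, again without overlap (-1.72 ± 0.35, adjusted p = 0.00773). Both calsarcins therefore fell, from low levels. Filamin C, an actin crosslinker of the Z-disc, was at 202, 192, 252 and 186 CPM and 253, 290.1, 240.5 and 295 CPM. These groups overlapped, and its call (-0.36 ± 0.10, adjusted p = 0.0418) was lost without control replicate 1, 2 or 4 or without mutant replicate 1, 2 or 4, with the replicate block (adjusted p = 0.083) and with a block of the code in the sample descriptions (adjusted p = 0.063). Nexilin was at 501, 487, 516 and 469 CPM in mutants and 417, 434, 324 and 364 CPM in controls and rose (0.38 ± 0.088, adjusted p = 0.0159).

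On the thin filament, cardiac troponin I, Tnni3, was at 76.0, 92.1, 111 and 78.7 CPM in mutants and 179, 167, 146 and 131 CPM in controls. Every mutant lay below every control (-0.78 ± 0.13, adjusted p = 0.00215), whereas the embryonic form Tnni1 had a log2 change of -0.13 ± 0.087 (adjusted p = 0.36). Tnnt1, which lies 2328 bases from Tnni3 on the same strand of chromosome 7 (mm9 chr7:4456171-4467577, with Tnni3 at chr7:4469906-4474396), was at 7.13, 4.43, 10.8 and 4.97 CPM and 19.1, 14.3, 11.7 and 11.54 CPM. The groups did not overlap, and the call (-1.04 ± 0.27, adjusted p = 0.0273) was lost without control replicate 1 or 2 or without mutant replicate 1, 2 or 4. Leiomodin 2, Lmod2, which lengthens actin filaments at their pointed ends, was at 25.7, 21.5, 35.3 and 21.1 CPM in mutants and 51.1, 48.1, 41.4 and 68.2 CPM in controls. It fell in every mutant relative to every control (-0.99 ± 0.18, adjusted p = 0.00446). Tnnc1 was at 325, 357, 372 and 333 CPM and 481, 434, 410 and 474 CPM (-0.36 ± 0.074, adjusted p = 0.00898). Cardiac troponin T, Tnnt2, did not pass the test (0.11 ± 0.077, adjusted p = 0.394), nor did Actc1 (-0.071 ± 0.10, adjusted p = 0.702).

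Of the intermediate filament and stress proteins, αB-crystallin (Cryab), a chaperone of desmin and the Z-disc, was at 112, 152, 165 and 133 CPM in mutants and 238, 247, 203 and 245 CPM in controls. It had the smallest adjusted p of the members (-0.71 ± 0.11, adjusted p = 0.00188), and the groups did not overlap. Desmin (Des), the intermediate filament that links Z-discs, was at 130.2, 128, 193 and 143 CPM and 224, 259, 192 and 256 CPM, where 1 mutant lay above the lowest control (-0.63 ± 0.13, adjusted p = 0.00971). Smpx was at 36.1, 53.3, 72.2 and 50.4 CPM and 89.0, 85.8, 82.0 and 103 CPM, without overlap (-0.74 ± 0.17, adjusted p = 0.0131). Ankrd1, a titin-associated protein that responds to stretch, did not pass the test (-0.12 ± 0.16, adjusted p = 0.676), and its sign turned without control replicate 4 (0.064).

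Titin, the giant spring of the sarcomere that spans from Z-disc to M-band, was at 35370, 26830, 36200 and 28570 CPM in mutants and 18110, 23830, 19690 and 24830 CPM in controls. It rose with no overlap (0.57 ± 0.12, adjusted p = 0.00782). Of the myosin genes, the atrial light chain Myl4 was the only member called, at 1791, 1779, 1762 and 1728 CPM and 2296, 2257, 1914 and 2148 CPM (-0.27 ± 0.066, adjusted p = 0.0203), and this call was lost without control replicate 1 or mutant replicate 4 and with the replicate block (adjusted p = 0.059). Myh6 (-0.083 ± 0.12), Myh7 (0.29 ± 0.18), Myl2 (-0.23 ± 0.15), Myl3 (0.18 ± 0.11) and Myl7 (0.15 ± 0.087) did not pass.

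Other cell types moved with these genes in Mesp1Cre hearts. The summed level of 15 erythroid markers was 2409 to 7992 CPM in mutants and 5744 to 18430 CPM in controls, with 5 called lower and 1 higher. That of 12 endothelial markers was 936.9 to 1066 CPM in mutants and 682.8 to 807.5 CPM in controls, with 5 called higher. The 17 cardiomyocyte markers summed to 6963 to 8124 CPM in mutants and 6623 to 8307 CPM in controls, so that the ranges overlapped, and of the 16 tested 3 were higher and 1 lower. With hemoglobin genes or with mitochondrial genome genes left out, all 13 members kept their call. Over all genes 1817 and 1790 were then called, against 1821 with them. These fits only drop the counts of those genes and cannot remove the cells or the RNA content behind them, whose part was not tested.

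In the right ventricle and outflow tract of Mef2cAHF::Cre embryos, 6 of 39 members tested passed the threshold, each at a higher level in the samples labelled mutant and 0 at a lower one, or 15.4% against 2.85% of all 16920 genes tested (1.81% up and 1.04% down). Read by the column names, the same 6 members were lower and 0 higher in the mutants. By unadjusted p, 22 members were under 0.05 (3037 of all 16920 genes), and DESeq2 called 15 members higher and 1 lower (1078 of 29613 genes in either direction). The log2 change was positive by the labels for 33 of the 39, with a median of 0.28 against -0.0067 over all genes. For 20 members (51.3%) every library labelled mutant was above every library labelled WT, and for 1 (2.56%) it was below. Of all genes, 12.4% and 11.51% were so placed, or 23.9% together.

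Cardiac troponin I led these genes. Tnni3 was at 129, 112 and 120.4 CPM in the libraries labelled mutant and 59.7, 50.9 and 59.2 CPM in those labelled WT. The groups were clearly apart, and the log2 fold change was 1.09 ± 0.086 when the labels were followed and -1.09 when the columns were (adjusted p = 0.000697, edgeR quasi-likelihood test). Desmin was at 182, 169 and 181 CPM in libraries labelled mutant and 95.1, 75.7 and 109 CPM in those labelled WT, without overlap (0.93 ± 0.12 by the labels, adjusted p = 0.00678). These were the only members of the 6 called under every alternative tried.

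Both calsarcins were called. Myoz1 was at 2.70, 2.97 and 3.12 CPM in the libraries labelled mutant and 0.784, 0.949 and 1.13 CPM in those labelled WT, from 76 to 115 and 23 to 30 reads per library. The groups did not overlap (1.62 ± 0.23 by the labels, adjusted p = 0.0109), and the call was lost without any 1 of the 3 libraries labelled mutant. Myoz2 was at 48.0, 53.4 and 52.3 CPM and 43.0, 35.7 and 35.6 CPM (0.43 ± 0.092, adjusted p = 0.0459). Its call held only without the library labelled WT replicate 1 among the 6 fits that each left out 1 library.

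Filamin C was at 218, 201 and 222 CPM in libraries labelled mutant and 161, 144 and 174 CPM in those labelled WT (0.43 ± 0.084, adjusted p = 0.0348). Mylk3, the cardiac myosin light chain kinase that phosphorylates Myl2, was at 114, 79.0 and 98.1 CPM and 62.4, 68.7 and 63.2 CPM (0.58 ± 0.12, adjusted p = 0.0398). Each of these calls was lost in 4 of the 6 fits that left out 1 library. For the whole set, 2 members were called higher without the library labelled mutant replicate 1 or 3, and 3 without replicate 2. Over all genes the number called also fell, from 482 of 16920 to 78 of 17290 without replicate 1. It was 75 of 17259 without replicate 2 and 148 of 17344 without replicate 3.

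Just short of the threshold were Tnnt1, at 58.4, 40.2 and 48.0 CPM and 26.3, 21.4 and 35.9 CPM (0.81 ± 0.19, adjusted p = 0.0577), and Ankrd1 (-0.39 ± 0.092, adjusted p = 0.061), the one member with non-overlapping groups that was lower by the labels. Both passed without the library labelled WT replicate 3. Erythroid markers moved with the set: all 15 tested had positive log2 changes by the labels (2 called), with a summed level of 25430 to 48000 CPM in libraries labelled mutant and 7427 to 32500 CPM in those labelled WT. The 17 cardiomyocyte markers summed to 4991 to 5498 CPM and 4244 to 5410 CPM, and their part was not tested.

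In E11.5 Tnnt2::Cre hearts, 0 of 39 members tested were higher and 2 lower in the mutants by edgeR's quasi-likelihood test, or 5.13% against 0.293% of all 17045 genes tested (0.0763% higher and 0.217% lower). By unadjusted p, 14 members were under 0.05 (2034 of all 17045 genes), and DESeq2 called 3 members higher and 4 lower (366 of 25833 genes in either direction). The median log2 change of the members was 0.12, and 24 of 39 were positive. Groups did not overlap for 13 members (33.3%, against 16.9% of all genes). Mutants were above the controls for 5 members (12.8%, against 8.92% of all genes) and below for 8 (20.5%, against 7.98%).

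The 2 that fell were Tnnt1 and Myoz1. Tnnt1 was at 18.6, 23.3 and 24.1 CPM in the 3 mutants and 44.1, 42.7 and 51.9 CPM in the 3 controls. All mutants were below all controls (-1.07 ± 0.13, adjusted p = 0.0179). Myoz1 was at 1.18, 1.91 and 1.39 CPM in mutants and 7.05, 4.90 and 5.41 CPM in controls, also without overlap (-1.95 ± 0.25, adjusted p = 0.0186), from 47 to 73 and 169 to 300 reads per library. Both calls were lost, with the direction kept, without mutant replicate 3 or any 1 of the 3 controls, where 0 members were called lower. Over all genes, the number called went from 50 to 896 of 17487 without mutant replicate 1 and to 4 of 17560 without control replicate 3.

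Ankrd1 was at 461, 885 and 658 CPM in mutants and 270.2, 310.1 and 372 CPM in controls. Every mutant was above every control, but the adjusted p did not pass (1.08 ± 0.23, adjusted p = 0.122). Without mutant replicate 1, whose hemoglobin share resembled that of the controls, Ankrd1 was called higher at 1.29, and the part of that share was not tested. With all libraries kept, Ankrd1 was also called higher by DESeq2, in the fit of all genes with at least 1 count and in the 6-group fit. It was not called by limma on FPKM or with the replicate block. Desmin (-0.54 ± 0.14, adjusted p = 0.206) and Tnni3 (-0.50 ± 0.13, adjusted p = 0.212) had negative values that did not pass edgeR's test, although DESeq2 called both lower. Tnni3 was at 169, 197 and 181 CPM in mutants and 241, 227 and 308 CPM in controls. Lmod2 (0.19 ± 0.16), Cryab (0.072 ± 0.13), Smpx (0.27 ± 0.12) and Myoz2 (-0.25 ± 0.11) did not pass either. Erythroid markers summed to 19710 to 134300 CPM in mutants and 105300 to 162700 CPM in controls, with 0 of 15 called and 15 of 15 negative. The 17 cardiomyocyte markers summed to 6613 to 7386 CPM in mutants and 5189 to 6149 CPM in controls, without overlap. Of these, 13 had positive log2 changes, with 1 called higher and 1 lower, where 0.293% of all genes were called. The part of these markers was not tested.

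**Figure D2:**
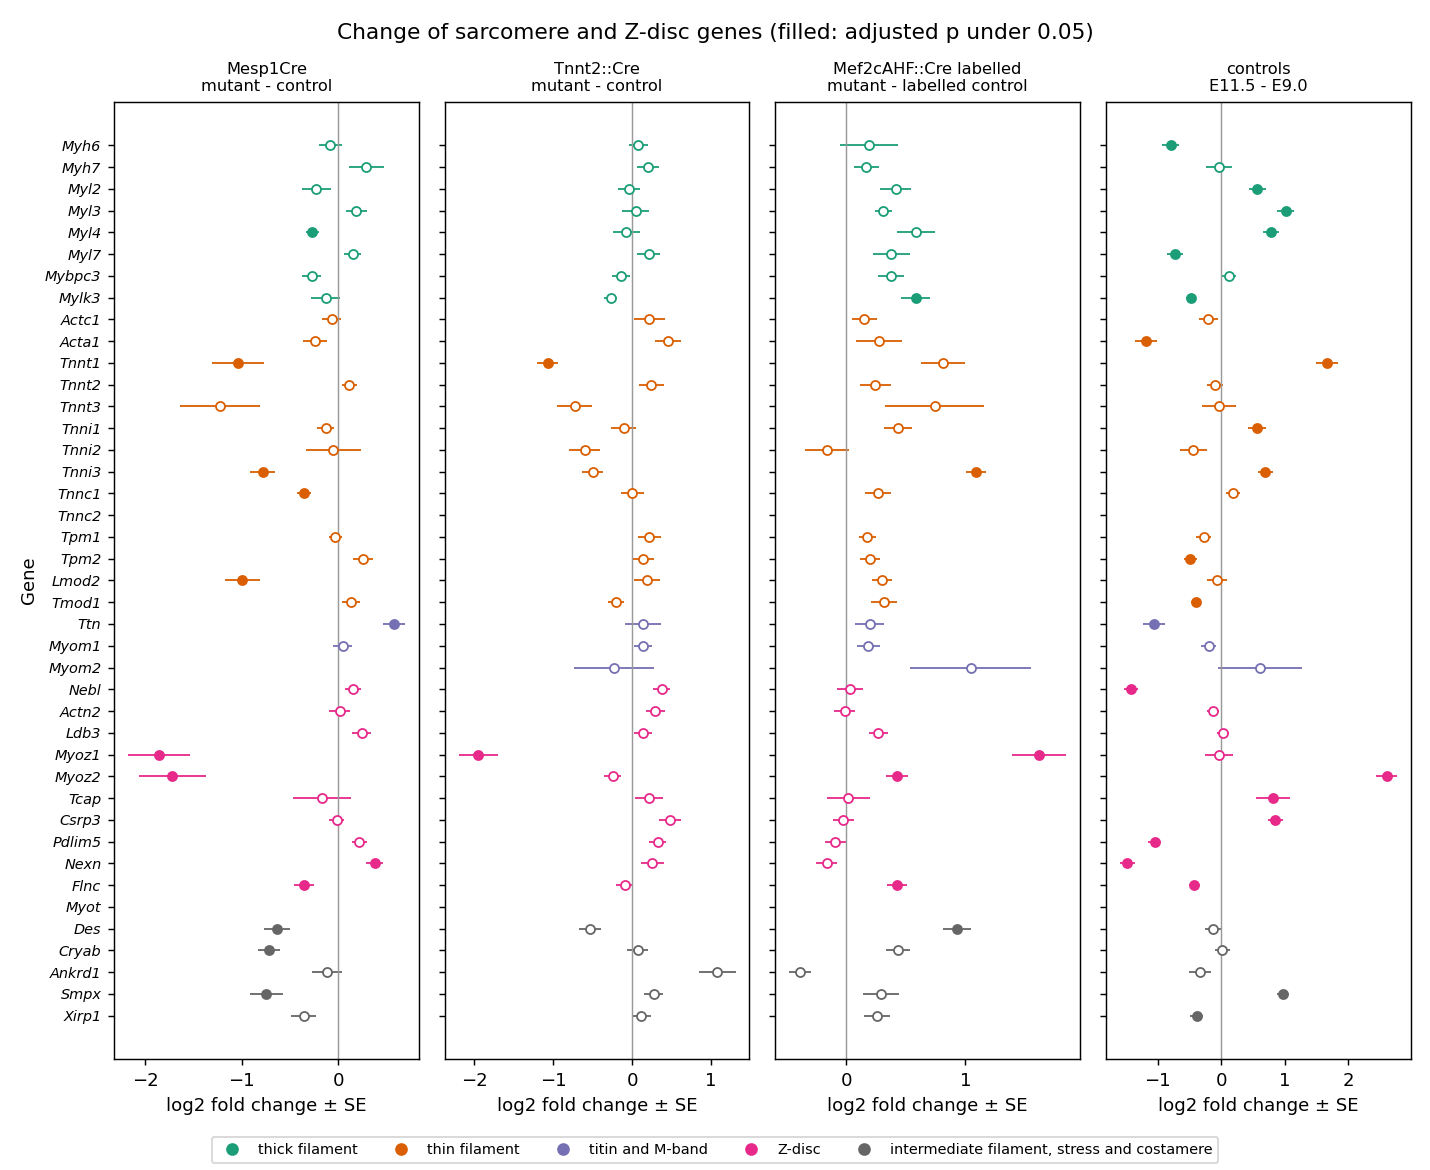
Log2 fold change with its SE for each member in 4 comparisons, coloured by the part of the sarcomere, with filled points where the adjusted p was under 0.05. Myoz1 and Tnnt1 are far to the left in both Mesp1Cre (-1.86 and -1.04) and Tnnt2::Cre (-1.95 and -1.07), and most points for Mef2cAHF::Cre, drawn by the sample labels, lie to the right. Tnnc2 and Myot, and Myom2 in Mesp1Cre, have no point because they were not tested.

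Whether a mutant-minus-control change differed between Cre lines was tested directly in 1 fit of all 20 libraries. Line, stage, tissue and the group number in the column names differ together and cannot be told apart. Between Mesp1Cre and Tnnt2::Cre, 5 of 39 members differed, or 12.8% against 3.04% of all 18391 genes (1.23% higher and 1.81% lower), and for all 5 the Mesp1Cre change was the lower. They were Myoz2 (difference -1.49 ± 0.32 on the log2 scale, adjusted p = 0.015, edgeR quasi-likelihood test), Ankrd1 (-1.21 ± 0.27, adjusted p = 0.0205), Lmod2 (-1.20 ± 0.25, adjusted p = 0.0144), Smpx (-1.03 ± 0.24, adjusted p = 0.0267) and Cryab (-0.80 ± 0.18, adjusted p = 0.0198). The count was 0 without Tnnt2::Cre control replicate 2 and 2 without control replicate 1 or mutant replicate 3. Over all genes the number called also fell, from 559 of 18391 to 167 of 18956 without control replicate 2. It was 259 of 18970 without control replicate 1 and 176 of 18958 without mutant replicate 3. For Myoz1 (0.075 ± 0.37, adjusted p = 0.948) and Tnnt1 (0.015 ± 0.35, adjusted p = 0.992) no difference between these lines was detected.

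Between Mef2cAHF::Cre and Tnnt2::Cre the answer depended on which label was followed. By the sample labels, 5 members had a higher and 1 a lower change in Mef2cAHF::Cre, or 15.4% against 3.19% of all genes (1.63% higher and 1.56% lower). They were Myoz1 (3.56 ± 0.42, adjusted p = 4.06e-05), Tnnt1 (1.88 ± 0.36, adjusted p = 0.00594), Tnni3 (1.59 ± 0.20, adjusted p = 9.08e-05), Des (1.47 ± 0.23, adjusted p = 0.000838) and Mylk3 (0.86 ± 0.22, adjusted p = 0.035) on the higher side and Ankrd1 (-1.46 ± 0.29, adjusted p = 0.00767) on the lower. The call on Mylk3 was lost with the replicate block and in 10 of the 12 fits that left out 1 library. By the column names, 0 members and 0% of all genes differed by edgeR's test, and 12 members had an unadjusted p under 0.05 (472 of all 18391 genes). By that reading the differences were 0.33 ± 0.41 for Myoz1, 0.26 ± 0.36 for Tnnt1, -0.58 ± 0.20 for Tnni3 and -0.39 ± 0.22 for Des.

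**Figure D3:**
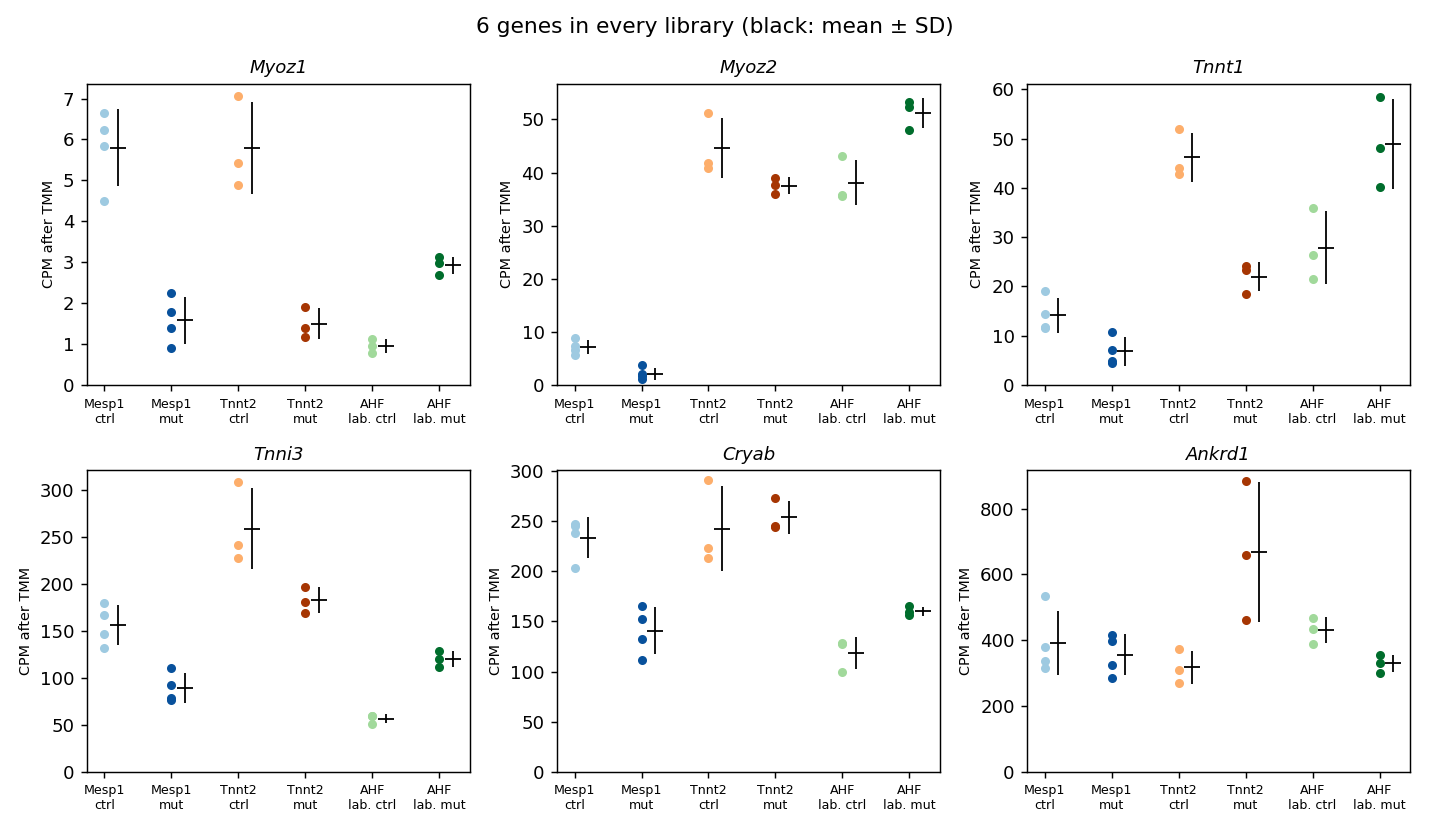
CPM of Myoz1, Myoz2, Tnnt1, Tnni3, Cryab and Ankrd1 in every library, grouped by Cre line and genotype, with the group mean. Mutants sit below controls for Myoz1 and Tnnt1 in Mesp1Cre and Tnnt2::Cre, and Tnni3 is higher in the Mef2cAHF::Cre libraries labelled mutant (112 to 129 CPM) than in those labelled WT (50.9 to 59.7 CPM).

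Isoform balance was measured within each library as the ratio of FPKM values, each with 0.1 added, for 10 pairs, and compared by a two-sided exact permutation test. The smallest p these tests can give is 0.0286 for Mesp1Cre and for the stages and 0.1 for the other lines, and after adjustment over the 40 tests none passed 0.05. In Mesp1Cre, Tnni1/Tnni3 was 5.11 to 7.25 in mutants and 3.34 to 4.95 in controls, without overlap, a log2 difference of 0.67 (exact p = 0.0286, adjusted 0.143). Tnnt1/Tnnt2 differed by -1.20 and Myl3/Myl4 by 0.44 on the log2 scale, both without overlap and with the same exact p, while Myoz1/Myoz2 overlapped (log2 difference -0.17).

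In Tnnt2::Cre, Tnni1/Tnni3 was 4.04 to 4.90 in mutants and 3.19 to 3.62 in controls (0.40 on the log2 scale, exact p = 0.1). In Mef2cAHF::Cre it was 4.99 to 5.15 in the libraries labelled mutant and 6.83 to 9.02 in those labelled WT (-0.64 when the labels were followed and 0.64 when the columns were, exact p = 0.1). None of these 3 pairs of groups overlapped. Myoz1/Myoz2 was 0.0997 to 0.146 in Tnnt2::Cre mutants and 0.295 to 0.477 in their controls (-1.63), and 0.158 to 0.168 in the Mef2cAHF::Cre libraries labelled mutant and 0.0568 to 0.0957 in those labelled WT (1.09 by the labels). Tnnt1/Tnnt2 and Tnnt3/Tnnt2 were lower in Tnnt2::Cre mutants by -1.33 and -0.99 without overlap. Myl2/Myl7 was also lower there (-0.27), and Tnni2/Tnni3 was lower in the libraries labelled Mef2cAHF::Cre mutant (-1.27). Myh7/Myh6 overlapped in all 4 comparisons.

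Between the stages, Myoz1/Myoz2 went from 1.77 to 2.89 at E9.0 to 0.295 to 0.477 at E11.5 (-2.60 on the log2 scale), so the skeletal calsarcin was the higher of the pair at E9.0 and the lower at E11.5. Myl2/Myl7 went from 0.0927 to 0.141 to 0.247 to 0.295 (1.31), Tnnt1/Tnnt2 changed by 1.80 and Acta1/Actc1 by -0.97. These 4 pairs did not overlap (exact p = 0.0286), nor did Tnni2/Tnni3 (-1.12, exact p = 0.0286). Tnni1/Tnni3 overlapped between the stages (-0.14, exact p = 0.543).

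**Figure D4:**
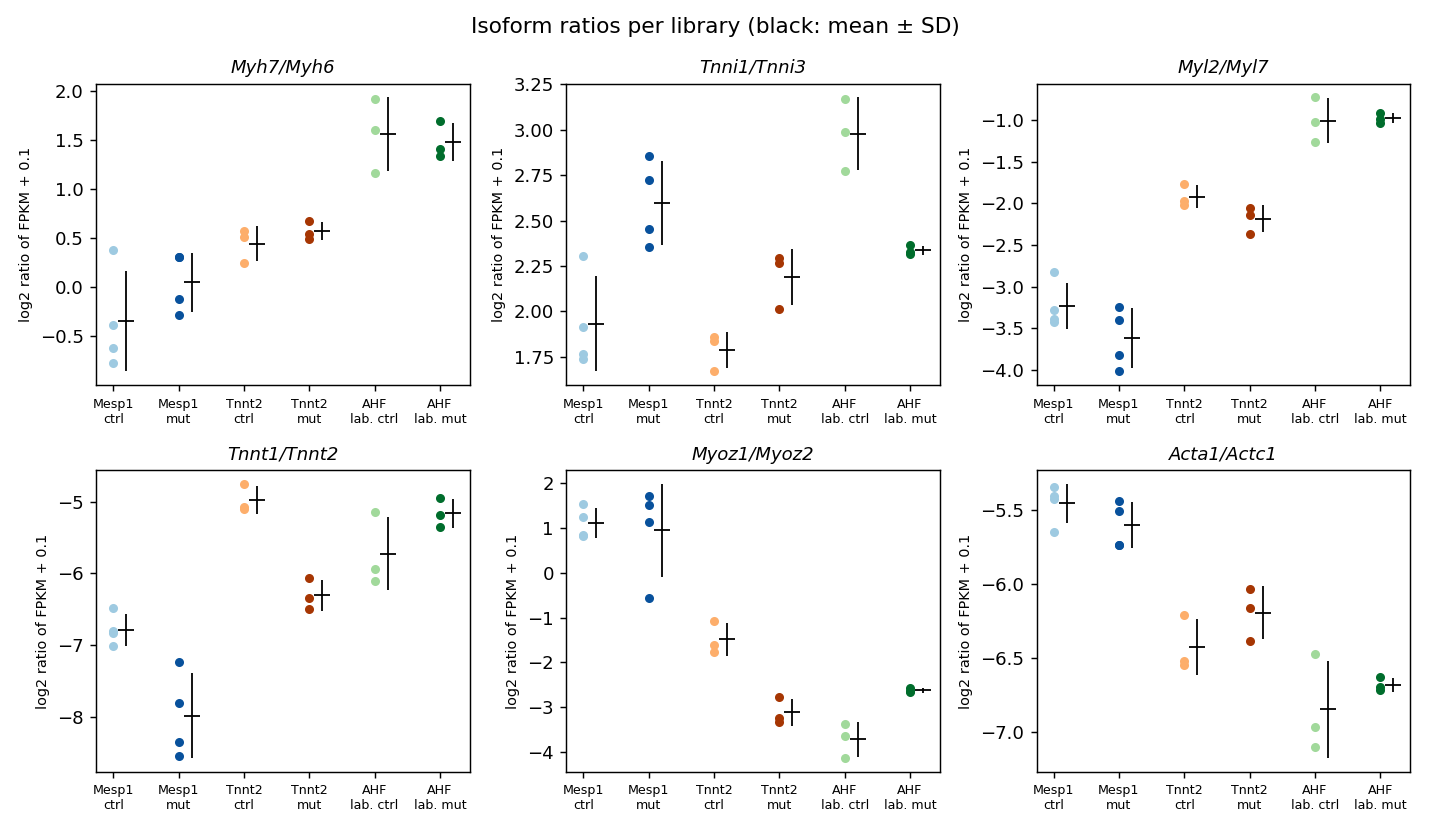
Ratio of FPKM of 6 isoform pairs in every library, on a log axis, with 1 point per library. Tnni1/Tnni3 is above 1 in all 20 libraries, Acta1/Actc1 and Myl2/Myl7 are below 1 in all 20, and Myoz1/Myoz2 is above 1 in the E9.0 controls and below 1 in every E11.5 library.

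Other genes of the pathway were counted from lists chosen with earlier results known, and each count is to be read against the share of all genes called in its comparison (11.47% in Mesp1Cre, 2.85% in Mef2cAHF::Cre, 0.293% in Tnnt2::Cre and 38.3% between the stages). Of 11 further thick filament genes tested in Mesp1Cre hearts, 2 fell and 0 rose: the fast skeletal light chains Mylpf (-2.25 ± 0.27, adjusted p = 0.000258) and Myl1 (-0.64 ± 0.13, adjusted p = 0.00829). Of 13 thin filament genes, 2 fell, namely Nrap (-2.06 ± 0.42), which helps assemble myofibrils, and the tropomyosin Tpm3 (-0.42 ± 0.085). Of 21 Z-disc and costamere genes, 3 fell, the PDZ-LIM proteins Pdlim1 (-0.86 ± 0.14) and Pdlim3 (-0.68 ± 0.13) and Synpo2l (-0.56 ± 0.14). Of 13 chaperones and ubiquitin ligases of the sarcomere, 5 fell and 1 rose, with the small heat shock protein Hspb2 at -0.60 ± 0.10, the myosin chaperone Unc45b at -0.44 ± 0.092 and Hspb8 at -0.47 ± 0.13. Of 18 regulators of sarcomere genes, the transcription factor Tbx5 rose (0.74 ± 0.15) and Smyd1, of the SMYD methyltransferase family, fell (-0.37 ± 0.071).

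In Mef2cAHF::Cre, 5 of 13 further thick filament genes were higher by the labels and 0 lower, with Mybpc1 at 1.47 ± 0.16, Mylpf at 1.65 ± 0.21 and Obsl1 at 0.49 ± 0.063. By the column names all of these reverse. Nrap was at 0.67 ± 0.089, the only one of 14 thin filament genes called, and Itgb1bp2, a muscle integrin-binding protein also called melusin, at 0.93 ± 0.19, the only one of 21 at the Z-disc and costamere. Of 13 chaperones and ligases, 3 were higher, Unc45b (0.71 ± 0.095), Hspb2 (0.82 ± 0.13) and Trim63 (0.59 ± 0.11), and 0 of 18 regulators passed by edgeR's test. In Tnnt2::Cre, Mybpc1, the slow skeletal myosin-binding protein, fell (-1.63 ± 0.22, adjusted p = 0.0264) and was the only one called among the 5 lists. Between the stages 11 of 18 regulators fell and 1 rose, with the serum response factor coactivator Myocd at -1.58 ± 0.084, Mef2c at -1.31 ± 0.075 and Tead1 at -0.78 ± 0.092, while Nrap rose (2.40 ± 0.27) and 7 of 14 thin filament genes fell.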

How the data were processed

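RNA-seq was performed on 20 libraries from embryonic mouse hearts. Reads were aligned by the authors to mm9 (the submitters' processing notes name TopHat2 2.0.8b and USeq 8.6.4), and the deposited counts are raw read counts per GENCODE gene. The deposited FPKM values are counts divided by gene length and library total, by the authors. A further 20 deposited columns of variance-corrected log2 values were not used. Whether counting used strand was not stated in the sources used here. Library kits differed between the labels and the published methods.

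Members and gene lists were chosen with earlier results of these data known. Counts were compared with edgeR 4.0.16 (quasi-likelihood F test, filterByExpr, TMM, Benjamini-Hochberg adjustment over all genes tested, threshold 0.05), fitting the 2 groups of each comparison alone and all 20 libraries for differences between lines. The SE was taken as the absolute log2 fold change divided by the square root of F. The edgeR script was tested on simulated data with 200 changed genes. CPM values are counts relative to 1000000 reads after TMM over all 20 libraries. FPKM + 0.1 was used for isoform ratios, with exact permutation tests from SciPy 1.17.1. Depth ranged from 21727258 to 45341870 counts, which leaves the fast skeletal members with few reads.

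All members were accounted for, and every member past the threshold was named. From each other list, at most the 3 genes with the smallest adjusted p were named in each comparison. Alternatives were DESeq2 1.42.0, limma 3.58.1 on log2(FPKM + 0.1) and log2(FPKM + 1), other size factors, no filter beyond 1 count, a replicate block, the 6-group fit, hemoglobin or mitochondrial genes left out and each replicate left out, the mitochondrial setting and the block in the tests between lines being chosen after seeing the data.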

Additional observations from a re-analysis of the deposited data

Results flagged for a closer look

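Among the 4-library groups, 1 library stood apart from the other 3 by Dixon's criterion in 8 of 82 tests of a member in a group, where chance gives about 1 in 20. In Mesp1Cre control replicate 3, Myl3 was at 563.7 CPM (713.7 to 730.7 in the others), Tpm1 at 2448 (2823 to 2899) and Mybpc3 at 357.7 (465.6 to 485.7). In Mesp1Cre mutant replicate 3, Mybpc3 was at 411 CPM (339 to 348.4 in the others) and Pdlim5 at 427.4 (370.8 to 376.1). The other 3 concerned genes of few reads, with Myot at 0.825 CPM in control replicate 2 and 0.253 in mutant replicate 1, and Myom2 at 0.719 in mutant replicate 2. Myl3, Tpm1, Mybpc3 and Pdlim5 did not pass the test in the Mesp1Cre comparison, and Myom2 and Myot were not tested in it.

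The mutant-minus-control change differed between Mesp1Cre and Tnnt2::Cre for Myoz2 (-1.49 on the log2 scale), Lmod2 (-1.20), Ankrd1 (-1.21), Smpx (-1.03) and Cryab (-0.80). That was 12.8% of the members tested against 3.04% of all genes, and 0 of these 5 kept their call under every alternative. Between Mef2cAHF::Cre by the sample labels and Tnnt2::Cre the change differed for Myoz1 (3.56), Tnnt1 (1.88), Tnni3 (1.59), Des (1.47), Mylk3 (0.86) and Ankrd1 (-1.46), or 15.4% against 3.19% of all genes. By the column names it differed for 0 members by edgeR's test (12 at an unadjusted p under 0.05, as were 472 of all 18391 genes).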

How the results depend on the processing

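Of the members called, 7 of 13 for Mesp1Cre (Cryab, Tnni3, Myoz1, Lmod2, Myoz2, Ttn and Nexn), 2 of 6 for Mef2cAHF::Cre, 0 of 2 for Tnnt2::Cre and 12 of 22 for the stages kept their call under every alternative, fits without 1 replicate included. In the tests between lines, 0 of 5 for Mesp1Cre and 5 of 6 for Mef2cAHF::Cre by the labels, each against Tnnt2::Cre, did so. In Mesp1Cre, limma on log2(FPKM + 0.1) or log2(FPKM + 1) called 5 members higher and 5 lower and put Ankrd1 at 0.052 in both. The FPKM scale shifted the median log2 change of all genes in Mesp1Cre by 0.15, in Mef2cAHF::Cre by -0.11 and in Tnnt2::Cre by 0.11 at a pseudocount of 0.1. In Mef2cAHF::Cre by the labels, DESeq2 called 15 members higher and 1 lower, the fit of all genes with at least 1 count 14 and 1, limma on FPKM 3 higher at either pseudocount and the 6-group fit 3 higher. In Tnnt2::Cre, DESeq2 called 3 higher and 4 lower, the fit of all genes 1 higher, limma on FPKM 0 lower at either pseudocount, and the 6-group fit 1 higher and 1 lower. Between the stages, the right ventricle and outflow tract labelled WT gave 3 higher and 23 lower (34.7% of all genes called). There Myl2 was at -0.060, Myl3 at -0.11, Myl4 at -1.15, Tnni1 at -0.40 and Tnni3 at -1.46. The calls on Nexn (-0.21), Csrp3, Smpx and Tcap were lost. The columns named WT gave 22 lower (38.6% of all genes called), with Myl4 at -0.58 and Tnni3 at -0.38, and the calls on Myl3, Tnni1, Csrp3 and Tcap were lost. For Mef2cAHF::Cre by the labels against Tnnt2::Cre, DESeq2 called 8 higher and 3 lower, and the fit of all genes 2 lower. The cause of these shifts was not tested. Over all genes, DESeq2 called 1078 in Mef2cAHF::Cre (482 in edgeR) and 366 in Tnnt2::Cre (50 in edgeR), and the 6-group fit called 3593 in Mesp1Cre (1821 alone). In Mef2cAHF::Cre the fit of all genes with at least 1 count called 1311 of 29613, limma 85 or 71 of 24331 and the 6-group fit 129 of 18391. In Tnnt2::Cre these fits called 120 of 25833, 4 of 21702 and 82 of 18391. Limma called 1466 or 1426 of 22271 in Mesp1Cre, of which 12.1% or 12.5% were lower. By the labels against Tnnt2::Cre, DESeq2 called 1041 of 30417 and the fit of all genes 829 of 30417.

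Without 1 replicate, the members called lower in Mesp1Cre ranged from 8 to 13 and those higher stayed at 2, and Ankrd1 ranged from -0.21 to 0.064. In Mef2cAHF::Cre 2 to 8 were called higher and 0 to 1 lower. In Tnnt2::Cre 0 to 1 were higher and 0 to 2 lower, and Cryab ranged from -0.0091 to 0.22. Between the stages 9 to 10 were higher and 11 to 14 lower. The Mesp1Cre and Tnnt2::Cre changes differed for 0 to 6 members (lower), and by the labels Mef2cAHF::Cre differed from Tnnt2::Cre for 4 to 6 (higher) and 1 to 2 (lower). Over all genes these fits called 1052 to 2161 in Mesp1Cre, 75 to 662 in Mef2cAHF::Cre and 4 to 896 in Tnnt2::Cre. They called 4758 to 6156 between the stages. Between the lines they called 167 to 1037 for Mesp1Cre and 295 to 1031 for Mef2cAHF::Cre by the labels, each against Tnnt2::Cre. Ratios without overlap numbered 3 to 5 in Mesp1Cre and 3 to 6 in Mef2cAHF::Cre, where Myh7/Myh6 ranged from -0.28 to 0.098.

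In Mesp1Cre, mutant and control libraries of the same replicate number share a code in their sample descriptions. Whether replicate numbers pair the samples was not settled. Deviations of same-numbered libraries from their group means correlated at -0.068 to 0.10 in Mesp1Cre and -0.028 to 0.23 in Mef2cAHF::Cre. The values were -0.071 to 0.13 in Tnnt2::Cre and -0.15 to -0.11 between the stages. With so few libraries per group, such correlations cannot show whether pairs exist. With the replicate block, 1 member was called lower in Mef2cAHF::Cre (9 higher) and 1 lower in Tnnt2::Cre, and in Mesp1Cre 2 were higher and 9 lower, the calls on Myl4 and Flnc being lost. A block of the code in the Mesp1Cre sample descriptions gave 2 higher and 10 lower, the call on Flnc being lost. Over all genes the replicate block called 517 in Mef2cAHF::Cre, 28 in Tnnt2::Cre and 1384 in Mesp1Cre, and the block of the code called 1482.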

Other observations

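In Mesp1Cre mutants the calcium release channel Ryr2 rose (0.58 ± 0.12, adjusted p = 0.00714, edgeR quasi-likelihood test) and phospholamban (Pln), which restrains the calcium pump, fell (-0.92 ± 0.20, adjusted p = 0.0118). The endothelial receptors Flt1 (1.09 ± 0.12) and Kdr (0.74 ± 0.081) and the endocardial natriuretic peptide receptor Npr3 (0.62 ± 0.094) rose there, and 5 of 12 endothelial markers were called higher and 0 lower. In Tnnt2::Cre mutants the natriuretic peptide gene Nppb rose (1.72 ± 0.25, adjusted p = 0.0323) and muscle creatine kinase, Ckm, fell (-3.21 ± 0.45, adjusted p = 0.0274).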
